A study of Rattus norvegicus with 9 samples.

Results

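The miR-30 family was read in the serum of rats by precursor and by arm. A miRNA precursor is a hairpin from which 2 strands can be cut, the 5p arm and the 3p arm, and the deposited table lists them as separate miRNAs. The family was taken by name, as every row named miR-30a, miR-30b, miR-30c, miR-30d or miR-30e, which gave 8 of the 276 rows. Of these, 5 are 5p arms (rno-miR-30a-5p, rno-miR-30b-5p, rno-miR-30c-5p, rno-miR-30d-5p and rno-miR-30e-5p) and 3 are 3p arms (rno-miR-30a-3p, rno-miR-30d-3p and rno-miR-30e-3p). The prefix rno, for the rat, is left out where values are compared.

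The PAB group was 6 wild-type male Sprague-Dawley (SD) rats in which a fixed plastic ring narrowed the pulmonary artery, so that the right ventricle (RV) pumped against a raised load. The sham group was 3 wild-type male SD rats that were operated on without the band. The methods give an age of 4 weeks at surgery, isoflurane anaesthesia and buprenorphine, and serum was labelled as taken at week 4 in both groups. The band loads the RV mechanically and does not model disease of the lung vessels. Each library is labelled as 1 rat, and serum collects miRNAs from blood cells and from all organs, so a change in release, in clearance or in the number of source cells cannot be told apart.

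miRNAs guide the silencing of messenger RNAs through the seed, the bases at positions 2 to 8. The 5p arms of the miR-30 family share 1 seed and so share most of their targets, while the 3p arms have other seeds. In heart muscle the family is known, with miR-133, to restrain connective tissue growth factor and so collagen production, and it falls in diseased left ventricles. In most tissues the 5p arm is the abundant strand of the miR-30 precursors, although the 3p arms of miR-30a and miR-30e are known to be loaded as well.

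The sequences below show what sets the members apart and what does not. RefSeq, on rat build GRCr8, gave a mature sequence for 4 of the 8 rows. Capitals mark the seed, and each sequence runs 5′ to 3′.
miR-30a-5p: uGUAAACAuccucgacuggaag
miR-30e-5p: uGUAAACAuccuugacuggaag
miR-30c-5p: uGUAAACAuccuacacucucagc
miR-30a-3p: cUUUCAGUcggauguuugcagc
The 3 5p arms were identical over the first 12 bases. With positions counted from 1 at the 5′ end, miR-30a-5p and miR-30e-5p differed at 1 of 22 bases (C13U), and miR-30a-5p and miR-30c-5p at 5 of 22 (C13A, G14C, G18C, G19U and A20C). The rule that assigned reads to such near-identical members is not given in the sources used here, so the split of reads between miR-30a-5p and miR-30e-5p is uncertain. The seed GUAAACA stands at positions 2 to 8 in 4 of the 693 rat mature names of the same RefSeq table, the fourth being miR-384-5p.

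The hairpin of miR-30a is shown because its arms were read so unequally in the libraries. It lies at chr9:33233941-33234011 on the plus strand of GRCr8, and capitals mark the 5p arm and then the 3p arm.
Mir30a: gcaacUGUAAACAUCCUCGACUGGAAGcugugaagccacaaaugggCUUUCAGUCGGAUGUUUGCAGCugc
The hairpin of miR-30e lies at chr5:139637450-139637541 on the minus strand, inside the coordinates of Nfyc, a gene for a subunit of the transcription factor NF-Y. Capitals mark its 5p arm.
Mir30e: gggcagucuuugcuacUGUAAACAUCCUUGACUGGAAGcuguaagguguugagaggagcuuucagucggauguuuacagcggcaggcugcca
In the same annotation Mir30e lies within 30 kb of Mir30c1, Mir30a within 30 kb of Mir30c2, and Mir30b within 30 kb of Mir30d. miR-30c-5p is cut from both Mir30c1 and Mir30c2 with the same 23 bases, so its reads cannot be assigned to a locus.

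The miRNA reads per library were 19477 to 64455 (median 39871) in the PAB group and 56231 to 65313 (median 65196) in the sham group. One read corresponded to 0.0520 to 0.0779 RPM in the PAB group and to 0.0590 to 0.0792 RPM in the sham group. RPM is the authors' scaling of the reads to 1 total per library, which is larger than the sum of its miRNA reads. Of the miRNAs fixed as markers of other sources, those of red blood cells (3 of 5 measured) summed to 33.3 to 209 RPM in the PAB group and 6.81 to 50.6 RPM in the sham group, and those of platelets (4 of 4) to 114 to 1320 RPM and 994 to 2044 RPM. The platelet sums were mostly miR-191a-5p and miR-24-3p, while miR-223-3p had 683 reads in PAB library 5 and 0 or 1 in each other library. In the edgeR fit below, 2 of the 4 platelet markers had a positive difference of PAB from sham and 2 a negative one. The heart and skeletal muscle markers (5 of 8) summed to 2.86 to 63.7 RPM in the PAB group and 5.96 to 95.9 RPM in the sham group. The kidney and gut epithelium markers (4 of 4) summed to 0 in PAB libraries 2 to 5, to 17.5 RPM in PAB library 1 and to 0.234 RPM in PAB library 6, against 0.0590 to 1.37 RPM in the sham group. PAB library 1 owed this to 336 reads of miR-215, which was at 0 in the sham group, while miR-194-5p and miR-200a-3p were at 0 in all 6 PAB libraries. The liver markers (2 of 2) summed to 0 to 117 RPM in the PAB group and 31.3 to 163 RPM in the sham group, with miR-122-5p at 0 in PAB libraries 4 and 5. The part of these sources in the miR-30 values was not tested.

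The miR-30 family was sparse in rat serum, and its reads sat in a few libraries. It had 1697 reads over the 9 libraries. Of the 72 values that 8 members in 9 libraries give, 41 were 0, 26 were 1 to 35 reads, and 5 were above 100 reads. Those 5 values held 91.8% of all reads of the family. They were miR-30d-5p in PAB libraries 3 and 6 (63.5%), miR-30b-5p in PAB library 6 (13.5%), miR-30e-3p in sham library 1 (7.60%) and miR-30a-3p in sham library 3 (7.19%). All 3 high 5p values were thus in the PAB group and both high 3p values in the sham group. The order of the members differed between the groups. By mean share of the miRNA reads, miR-30d-5p ranked 36 of 276 in the PAB group, ahead of miR-30b-5p at 67, whereas in the sham group miR-30a-3p ranked 77, miR-30e-3p 83, miR-30b-5p 99 and miR-30d-5p 112.

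**Figure D1:**
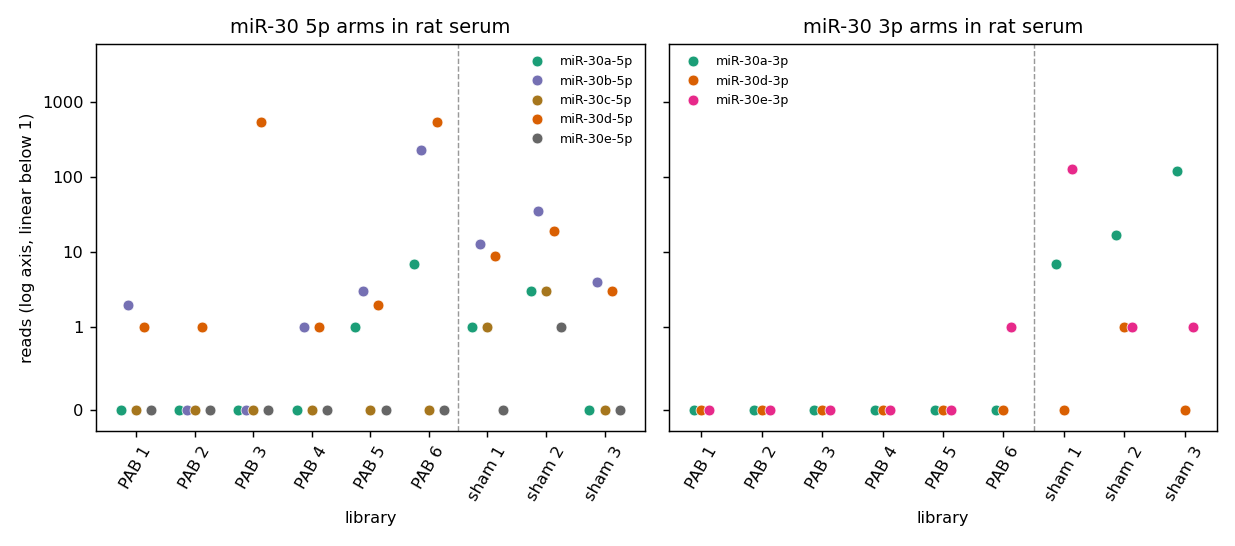
Reads of each miR-30 member (y axis, reads on a log axis that is linear below 1) in the 6 PAB and 3 sham libraries (x axis), with 5p arms on the left and 3p arms on the right; each point is 1 member in 1 library. The highest points are miR-30d-5p at 539 reads in PAB libraries 3 and 6, miR-30b-5p at 229 in PAB library 6, miR-30e-3p at 129 in sham library 1 and miR-30a-3p at 122 in sham library 3.

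By arm, the family was nearly all 5p in the PAB group and mostly 3p in 2 of 3 sham libraries. In PAB libraries 1 to 6 the 5p arms summed to 3, 1, 539, 2, 6 and 775 reads, against 24, 61 and 7 reads for sham rats 1 to 3. In RPM the 5p sum ran from 0.0640 to 60.4 (median 0.234) in the PAB group and from 0.413 to 3.64 (median 1.90) in the sham group. In RPM the 4 lower PAB libraries were below every sham library and the 2 higher ones above every sham library. As a share of the miRNA reads, PAB library 1 (0.0154%, 3 reads) lay inside the range of the sham group (0.0124% to 0.0936%). In PAB libraries 3 and 6 the 5p arms made up 2.03% and 2.60% of the miRNA reads, against at most 0.0936% in a sham library.
The 3p arms summed to 0 reads for PAB rats 1 to 5 and 1 read for PAB rat 6, against 136, 19 and 123 reads for sham rats 1 to 3. In RPM this is at most 0.0780 in the PAB group and 1.14 to 10.8 in the sham group, and the groups did not overlap. Of all miRNAs tested below, 9.88% had every PAB library below every sham library. The sum parts the groups through miR-30a-3p, since miR-30e-3p alone overlapped. Which of them parts the groups rests on the uncertain split of reads between them. The 3p share of the family's reads was 0.0754% in the PAB group (1 of 1327 reads, exact Clopper-Pearson 95% interval 0.00191% to 0.419%) and 75.1% in the sham group (278 of 370 reads, 70.4% to 79.5%). Within the sham group the 3p share was 85.0% in library 1, 23.8% in library 2 and 94.6% in library 3. These intervals cover counting error only, since PCR reads without molecular identifiers are not independent molecules. The 4 PAB libraries with 1 to 6 reads of the family could not show a 3p share, with upper limits of 45.9% to 97.5%.

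**Figure D2:**
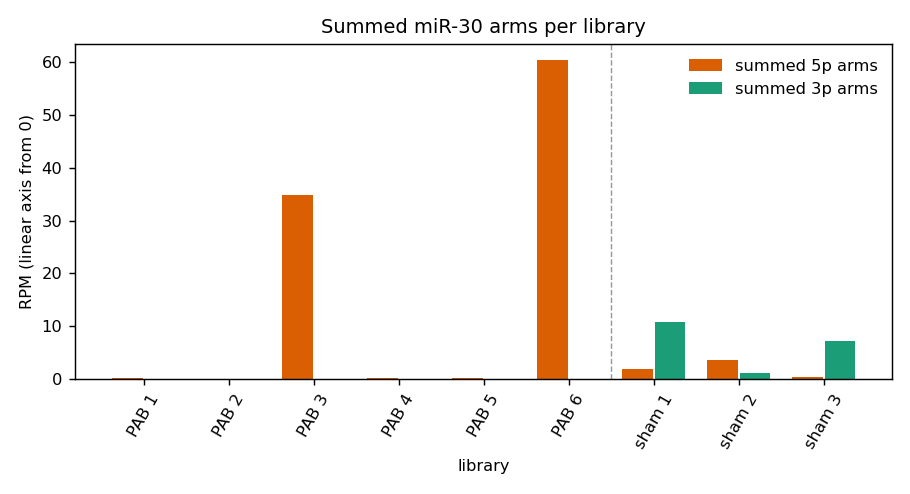
RPM of the summed 5p arms (orange) and summed 3p arms (green) of the miR-30 family (y axis, linear from 0) in each of the 6 PAB and 3 sham libraries (x axis). The 5p bars reach 34.8 and 60.4 RPM in PAB libraries 3 and 6 and at most 3.64 RPM in the sham group, and the 3p bars reach 10.8 RPM in sham library 1 and at most 0.0780 RPM in the PAB group.

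miR-30d-5p had the most reads of the family in all, through PAB libraries 3 and 6, and in every sham library it had fewer reads than miR-30b-5p. It was high in 2 of 6 rats with PAB and at the limit of detection in the other 4. In PAB libraries 1 to 6, rno-miR-30d-5p had 1, 1, 539, 1, 2 and 539 reads, against 9, 19 and 3 reads for sham rats 1 to 3. Its PAB mean was 12.9 ± 19.9 RPM (SD, n = 6), against a sham mean of 0.675 ± 0.480 RPM (SD, n = 3), while the medians were 0.0845 RPM in PAB and 0.713 RPM in sham serum. The mean was thus higher and the median lower in the PAB group, and no PAB library lay between 0.104 and 34.8 RPM, where all 3 sham values lay. Across these 2 PAB libraries, 18 miRNAs had at least 100 reads in both, and miR-30d-5p was the 1 of them with equal counts. These libraries had 26519 and 29833 miRNA reads. Their red blood cell markers summed to 33.3 and 209 RPM, the lowest and the highest of the PAB group, and their muscle markers to 63.7 and 11.0 RPM. Each contrast rests on 1 miRNA. miR-16-5p had 2 and 2440 reads in libraries 3 and 6, while miR-486 (78 and 5) and miR-451-5p (435 and 233) went the other way. Among the muscle markers miR-206-3p had 974 and 5 reads, while the others, such as miR-1b (8 and 111), went the other way.
Tests were run on the 162 miRNAs that had a read in 3 or more of the 9 libraries. In edgeR's quasi-likelihood test, log2FC of PAB against sham was 5.91 for miR-30d-5p (standard error 3.31, adjusted p = 0.351). Without PAB libraries 3 and 6, left out after their values were seen, its log2FC was −1.11 (adjusted p = 0.446 from edgeR). On log2(RPM + 0.1), where each library has the same weight, the PAB mean was 0.67 above the sham mean (p = 0.821 in a two-sided exact permutation test with 84 splits, adjusted p = 0.931 over the 162 miRNAs). With DESeq2 it was called higher, at a log2FC of 6.32 (adjusted p = 0.0290).

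miR-30b-5p, whose gene neighbours that of miR-30d, was high in 1 rat with PAB and low in the other 5. In PAB libraries 1 to 6, rno-miR-30b-5p had 2, 0, 0, 1, 3 and 229 reads, against 13, 35 and 4 reads for sham rats 1 to 3. Its PAB mean was 3.03 ± 7.26 RPM (SD, n = 6), against a sham mean of 1.12 ± 0.931 RPM (SD, n = 3), with medians of 0.0845 RPM in PAB and 1.03 RPM in sham serum. In RPM PAB library 6 lay above all sham libraries and the other 5 PAB libraries below them. As a share of the miRNA reads, PAB library 1 (0.0103%, 2 reads) lay above sham library 3 (0.00711%, 4 reads). Its log2FC was 2.83 (standard error 2.71, adjusted p = 0.641 from edgeR), and −1.71 without PAB library 6 (adjusted p = 0.396). On log2(RPM + 0.1) the PAB mean was below the sham mean, by −1.47 (exact permutation test, p = 0.452, adjusted p = 0.621).
The neighbours miR-30b-5p and miR-30d-5p went together in the sham group and apart in PAB library 3. The reads of miR-30b-5p divided by those of miR-30d-5p were 1.44, 1.84 and 1.33 in the 3 sham libraries. In the PAB group the ratio was 0.425 in library 6, while library 3 held 0 reads of miR-30b-5p beside 539 of miR-30d-5p. By counting error alone a count of 0 allows up to 3 reads, fewer than a ratio like that of the sham group would need. This limit treats reads as independent molecules, which PCR reads are not, so it cannot exclude such a ratio in PAB library 3. The other 4 PAB libraries had at most 3 reads of either.

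The remaining 5p arms were near the limit of detection. rno-miR-30a-5p had 1 read for PAB rat 5, 7 for PAB rat 6 and 0 for the other 4, against 1, 3 and 0 reads for sham rats 1 to 3. Its PAB mean was 0.0997 ± 0.220 RPM (SD, n = 6), against a sham mean of 0.0860 ± 0.0897 RPM (SD, n = 3). Its log2FC was 1.56 (standard error 1.36, adjusted p = 0.597 from edgeR), or −0.50 without PAB library 6, and its groups overlapped. On log2(RPM + 0.1) the difference had the other sign, at −0.22 (exact permutation test, p = 0.762, adjusted p = 0.894). miR-30c-5p had 0 reads in the PAB group and 1 and 3 reads in sham libraries 1 and 2, and miR-30e-5p had 1 read, in sham library 2. Neither passed the detection filter of the test, and a difference was not detectable at this depth.

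miR-30a-3p was read in every sham library and in no PAB library. The count of rno-miR-30a-3p was 0 for each of the 6 rats with PAB, against 7, 17 and 122 for sham rats 1 to 3, so the groups did not overlap. Among all tested miRNAs 9.88% had every PAB library below every sham library. The sham mean of miR-30a-3p, 2.92 ± 3.71 RPM (SD, n = 3), was 95.1-fold a floor of 3 counts summed over all PAB libraries, 0.0307 RPM. Without sham library 3 this ratio was 25.5-fold, at a sham mean of 0.784 RPM. The floor treats reads as independent molecules, which PCR reads are not, and leaves out the spread between rats. Neither ratio is thus a strict lower limit. The fitted log2FC of −9.13 (standard error 2.36, adjusted p = 0.0511 from edgeR), which depends on the prior count and is no bound, was the lowest of the 162 tested miRNAs. The difference on log2(RPM + 0.1) was −4.13. miR-30a-3p entered the tests only through the sham group. With 0 in every PAB library, 3 libraries with reads could only be the 3 sham libraries. The separation of the groups was thus set by the detection filter, and no exact p is given. The adjusted p from edgeR has the same limit. Leaving out any 1 sham library put it below the detection filter, so no such fit exists.
rno-miR-30e-3p had 0 reads for PAB rats 1 to 5 and 1 read for PAB rat 6, against 129, 1 and 1 reads for sham rats 1 to 3. Its PAB mean was 0.0130 ± 0.0318 RPM (SD, n = 6), against a sham mean of 3.45 ± 5.86 RPM (SD, n = 3). All but 2 of its sham reads came from library 1, and the other sham libraries (0.0600 and 0.0590 RPM) were below PAB library 6 (0.0780 RPM), so the groups overlapped. Its log2FC was −5.72 (standard error 1.57, adjusted p = 0.0511 from edgeR), and −1.32 without sham library 1 (adjusted p = 0.942). On log2(RPM + 0.1) the difference was −2.54 (exact permutation test, p = 0.0357, adjusted p = 0.156), and −0.53 without sham library 1. With reads in only 1 PAB library, miR-30e-3p too could not have passed the detection filter without the sham group. Its p-values from edgeR and the permutation test are limited by this and are no independent support for a difference. limma-voom gave a log2FC of −1.79 (adjusted p = 0.830). miR-30d-3p had 1 read, in sham library 2.
The high libraries of the 3p arms differed, though the split of reads between miR-30a-3p and miR-30e-3p is uncertain, as given above. Sham library 1 held 129 reads of miR-30e-3p and 7 of miR-30a-3p, sham library 3 held 1 and 122, and sham library 2 held 1 and 17.

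A miRNA was called where the adjusted p was at most 0.05 and log2FC at least 1 in size, and edgeR called no tested member of the family. These 0 of 5 stand beside 0% of all tested miRNAs called higher and 1.23% called lower. At an unadjusted p under 0.05 in edgeR, 2 of the 5 had a log2FC below 0 and 0 had one above 0, where all tested miRNAs gave 10.5% and 4.32%. The 2 were miR-30a-3p and miR-30e-3p, and neither could have passed the detection filter without the sham group. DESeq2 called miR-30d-5p higher, where it called 5.56% of all tested miRNAs higher and 2.47% lower. For miR-30a-3p, miR-30e-3p and miR-30b-5p it gave a log2FC but neither a p nor an adjusted p, so it could not have called them. The log2FC of the 3 tested 5p arms were all above 0 (median 2.83) and those of the 2 tested 3p arms below 0 (−9.13 and −5.72), where the 91 other tested 5p arms had a median of −0.19 and the 52 other tested 3p arms a median of −0.05. Over all 162 miRNAs the median was −0.15 with 46.9% above 0. Without PAB libraries 3 and 6 all 3 5p arms were below 0, with log2FC of −1.11 for miR-30d-5p, −1.42 for miR-30b-5p and −0.31 for miR-30a-5p, and adjusted p of 0.446 to 0.915.
Under the scalings tried in edgeR, the size of the differences moved and their sign did not. The sign of miR-30a-3p, at 0 in every PAB library, was fixed in advance. With TMM, the normalization used above, log2FC had a median of −0.15 over the tested miRNAs. It was −1.54 when libraries were scaled by the totals behind the authors' RPM. Relative to that median, log2FC with TMM was 6.05 for miR-30d-5p, 2.98 for miR-30b-5p, 1.71 for miR-30a-5p, −8.98 for miR-30a-3p and −5.58 for miR-30e-3p. With the totals implied by RPM these differences from the median were 5.77, 2.96, 1.66, −7.02 and −5.95 in the same order. On that scale edgeR called miR-30a-3p (adjusted p = 0.00531) and miR-30e-3p (adjusted p = 0.0194) lower, where 14.2% of all tested miRNAs were called lower. Neither 3p arm could have passed the detection filter without the sham group, so these calls are no independent support for a difference.

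**Figure D3:**
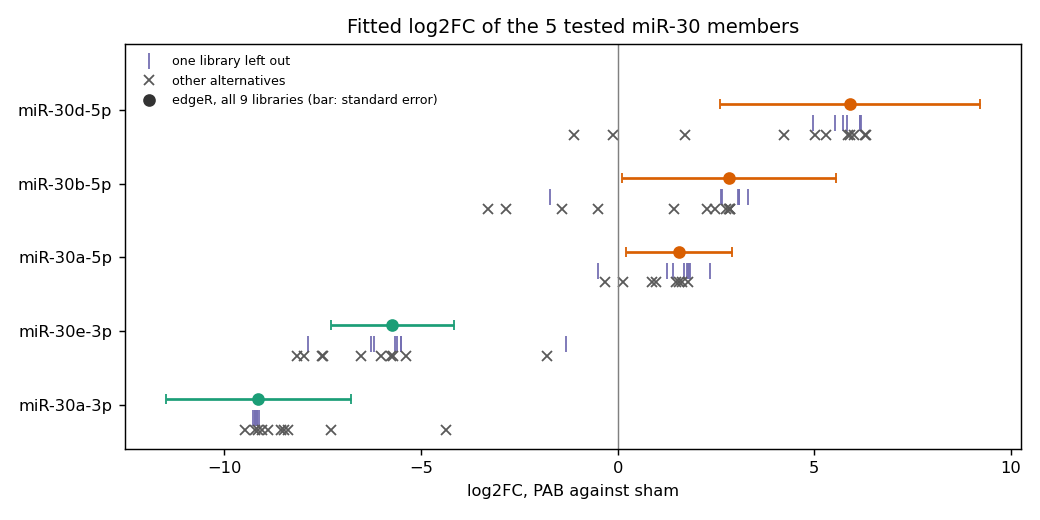
log2FC of PAB against sham (x axis) for the 5 tested miR-30 members (y axis). Points with bars are edgeR's fit to all 9 libraries with its standard error, ticks leave out 1 library each, and crosses are the other alternatives. Each tested 5p arm crosses 0: miR-30b-5p spans −3.31 to 3.32, miR-30d-5p −1.11 to 6.32 and miR-30a-5p −0.50 to 2.35. miR-30a-3p spans −9.47 to −4.37, with its sign fixed by 0 reads in every PAB library.

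A single library held most reads of several members, as it did for other serum miRNAs of their abundance. The highest library held 97.7% of the reads of miR-30e-3p, 83.6% of miR-30a-3p, 79.8% of miR-30b-5p, 58.3% of miR-30a-5p and 48.4% of miR-30d-5p. Of the 157 tested miRNAs outside the family, 8.28% had at least 80% of their reads in 1 library. Among the 32 of them with 100 to 1200 reads, a range chosen after the values were seen to take in miR-30b-5p, miR-30d-5p and both 3p arms, it was 11, or 34.4%.

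**Figure D4:**
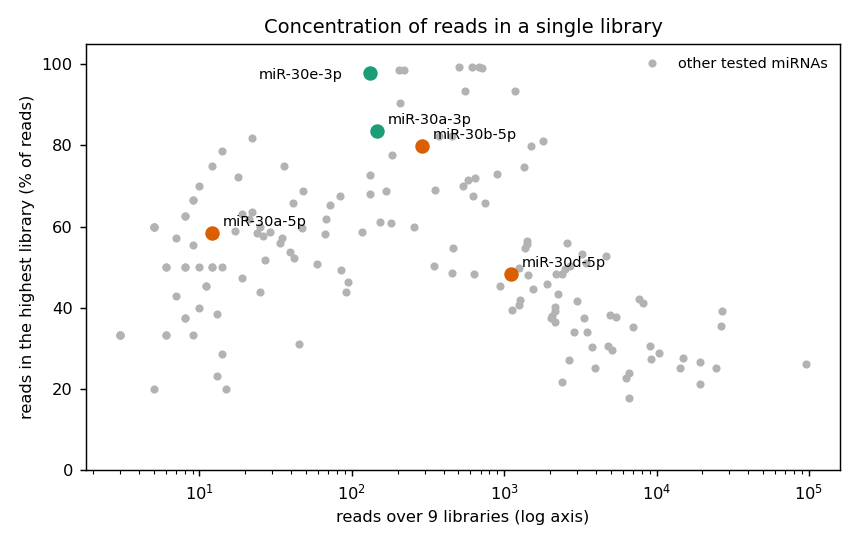
Share of a miRNA's reads found in its highest library (y axis, percent) against its reads over 9 libraries (x axis, log axis) for the 162 tested miRNAs, with 5p arms of the family in orange, 3p arms in green and all others in grey. miR-30e-3p sits at 97.7% and miR-30d-5p, whose reads were split between 2 libraries, at 48.4%.

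For the precursor of miR-30a, the more abundant arm differed between the groups. In the PAB group miR-30a had 0 reads of the 3p arm and 8 of the 5p arm, 7 of them in library 6, which puts the 3p share at 0% (exact 95% interval up to 36.9%). In the sham group it had 146 reads of the 3p arm and 4 of the 5p arm, a 3p share of 97.3% (93.3% to 99.3%). Only 2 PAB libraries had any read of either arm. The shares also rest on the split of reads between miR-30a and miR-30e, which is uncertain for both arms. The shares within sham libraries 1 to 3 were 87.5%, 85.0% and 100%. miR-30e was 3p in both groups, with 1 read of the 3p arm and 0 of the 5p arm in the PAB group and 131 and 1 in the sham group. miR-30d was 5p in both, with 0 reads of the 3p arm and 1083 of the 5p arm in the PAB group and 1 and 31 in the sham group.
Among the 34 other precursors listed with both arms, 26 had at least 5 reads in each group. The 3p arm was the more abundant one in both groups in 13 of them, the 5p arm in both in 11, and the arm differed in 2. These 2 were miR-151 and let-7e, named after their values were seen, and both were mostly 3p in the PAB group and 5p in the sham group, the opposite of miR-30a. For let-7e this rests on PAB library 4, with 610 of the 611 reads of its 3p arm in the PAB group, and without it the 3p share was 12.5% (1 of 8 reads). For miR-151 the 3p reads were in PAB libraries 2 and 6 (790 and 624), while PAB library 5 had 374 reads of the 5p arm and 0 of the 3p arm. Of the 3 with most reads, miR-191a was 5p in both groups (3p share 6.79% in the PAB group and 4.07% in the sham group), let-7d was 3p in both (80.8% and 96.9%), and miR-23a had 0 and 3 reads of its 5p arm.

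**Figure D5:**
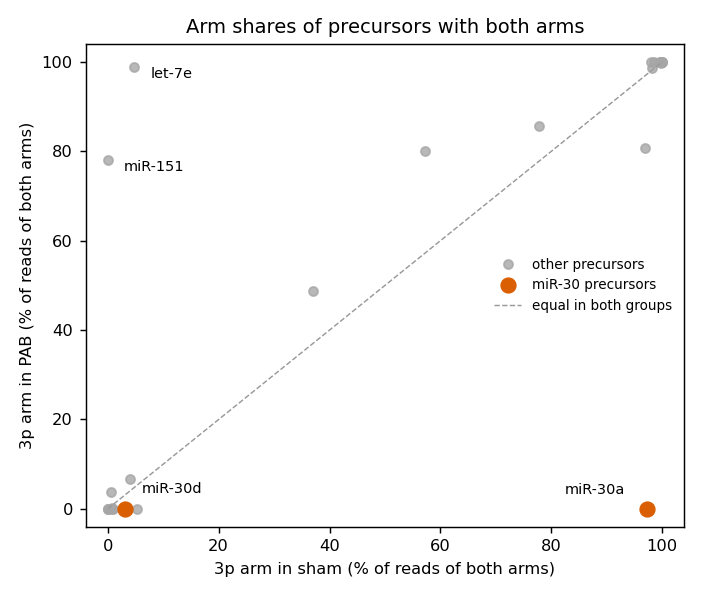
Share of the 3p arm in the reads of both arms, in the PAB group (y axis, percent) against the sham group (x axis, percent), for the 28 precursors with at least 5 reads of both arms together in each group; each point is 1 precursor and the dashed line marks equal shares. miR-30a lies at 0% in PAB and 97.3% in sham, and miR-151 and let-7e lie on the other side of the line.

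Other miRNAs of heart fibrosis and hypertrophy were followed beside the family. Of the 10 measured of 16 on this list, 0 were called by edgeR, 3 had a log2FC above 0 and 7 below, with a median of −0.80. Over all tested miRNAs 0% were called higher and 1.23% lower, and 46.9% had a log2FC above 0, with a median of −0.15. The members with the smallest p were miR-499-5p, a miRNA of striated muscle (−2.19), miR-29a-3p, which represses collagens (−1.26), miR-133a-3p (−1.25) and its relative miR-133c (−1.39), with adjusted p of 0.351 to 0.816 from edgeR. miR-29a-3p was sparse too, with 0 to 2 reads in the PAB libraries and 0 to 13 in the sham libraries.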

How the data were processed

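Small RNA of rat serum was sequenced in 9 libraries, 6 PAB and 3 sham. The deposited table holds whole reads (counts, not normalized) and RPM, which the authors scaled to 1 total per library. The study's methods name 50-base single-end reads, Rnor_6.0, Bowtie, miRBase and Rfam, while the submitters' notes name Bowtie2 2.2.9, DESeq2 and the human build GRCh38.p13. The rule for counting near-identical miRNAs is not given in the sources used here.
Counts were tested over all 162 miRNAs above 0 in at least 3 libraries with edgeR 4.0.16 (R 4.3.3; TMM, quasi-likelihood, Benjamini-Hochberg). The standard error is |log2FC| divided by the square root of F. Alternatives were DESeq2 1.42.0, limma-voom 3.58.1, other scalings and filters, the library number as a block, and leaving out each library.
Exact permutation tests were adjusted over all 162 miRNAs, in place of the planned adjustment over the members; the planned Fisher's test of detection is not reported, since the detection filter fixed its outcome for miR-30a-3p. Exact intervals used scipy 1.17.1. Floors are 3 counts. The miR-30 members, the marker lists and the comparisons were chosen with earlier results of these data known; all rows of the family were named.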

Additional observations from a re-analysis of the deposited data

Results flagged for a closer look

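Among the 6 PAB libraries, library 6 stood apart from the other 5 for several miR-30 values, by a gap to the next library that was a larger part of the whole range than Dixon's 95% limit for 6 samples. For normally distributed values chance flags about 1 group in 20 by this test, but these reads are sparse and skewed: of the 155 tested miRNAs with a range above 0 in the PAB group, 73 (47.1%) were past the limit, so such a gap is not particular to the family. For miR-30b-5p the gap was 0.991 of the range, with 17.8 RPM in library 6 and at most 0.157 RPM in the others. For miR-30a-5p it was 0.905, with 0.546 RPM against at most 0.0520 RPM. For miR-30e-3p and for the summed 3p arms it was 1, the whole range, but there the value in library 6 was a single read. miR-30d-5p was not set apart by this test, since libraries 3 and 6 were both high, and groups of 3 such as the sham group were not tested.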

How the results depend on the processing

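The miRNAs called higher numbered 0 in edgeR, 9 with DESeq2 and 1 with no filter; those called lower numbered 2 in edgeR, 4 with DESeq2, 6 with library totals, 23 with totals implied by RPM, 10 with no filter and 5 with miRBase names alone, and 0 with limma-voom, DESeq2's size factors, the 10-read filter, the replicate block, the same 6 libraries unblocked or without PAB libraries 3 and 6. Leaving out 1 library gave 0 higher and 0 to 2 lower. No paired design was labelled: deviations of same-numbered libraries correlated at 0.03, −0.35 and 0.03, PAB library 1 correlated best with sham library 2, and under the block log2FC was −3.31 for miR-30b-5p and −0.11 for miR-30d-5p, against −2.82 and 6.02 in those 6 libraries unblocked.
Of the members, both 3p arms stayed below 0 in every fit made. For miR-30a-3p this sign was fixed in advance by 0 reads in every PAB library. The calls of both 3p arms below, other than with no filter, have the limit of the detection filter given above. miR-30a-3p was called lower with library totals (−8.37), totals implied by RPM (−8.55) and miRBase names (−9.04), and miR-30e-3p with these 3 (−6.51, −7.48 and −6.01), with no filter (−5.72) and without sham library 3 (−6.28), but it was −1.79 with limma-voom and −1.32 without sham library 1. Of miR-30a-3p limma-voom gave −4.37 (adjusted p = 0.565). The sign turned under the block for miR-30b-5p (−3.31) and miR-30d-5p (−0.11), and in the same libraries unblocked for miR-30b-5p (−2.82). It also turned for miR-30b-5p with limma-voom (−0.51), without PAB library 6 (−1.71) and without libraries 3 and 6 (−1.42). For miR-30a-5p the sign turned in the last 2 (−0.50 and −0.31), and for miR-30d-5p in the last (−1.11). On log2(RPM + 0.1) the sign turned for miR-30a-5p, from −0.22 to 0.0012 with a pseudocount of 1 and to 0.13 without sham library 2. For miR-30d-5p it turned from 0.67 without PAB library 3 (−0.35) or 6 (−0.40). With 1 library left out the values ran from −0.50 to 2.35 for miR-30a-5p and −1.71 to 3.32 for miR-30b-5p, and on log2(RPM + 0.1) from −0.65 to 0.13 for miR-30a-5p and −0.40 to 1.22 for miR-30d-5p. The cause of these changes was not tested. With at most 7 reads of miR-30a-5p in any library, and at most 3 of miR-30c-5p, miR-30e-5p and miR-30d-3p, depth limits these members.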

Other observations

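For each tested member the miRNAs outside the family with the most similar pattern were taken by the mean absolute difference in log2(RPM + 0.1) over the 9 libraries, after each miRNA was centred on its own mean. For miR-30a-3p these were miR-10a-5p (0.85), miR-181a-1-3p (0.87) and miR-320-3p (0.91), against a median of 1.71 over all others tested. miR-10a-5p had 12 to 97 reads in the PAB libraries and 166 to 530 in the sham libraries. For miR-30e-3p they were miR-26b-5p (0.78), miR-31a-5p (0.82) and a miRNA predicted by the authors (0.85), against a median of 1.48. miR-26b-5p had 0 to 2 reads in the PAB libraries and 10, 11 and 1 reads in the sham libraries.
For miR-30d-5p the nearest was a predicted miRNA (1.40, against a median of 2.67), which had 523 and 764 reads in PAB libraries 3 and 6 and also 983 in sham library 2. It was followed by miR-98-5p (1.41) and miR-196a-5p (1.73), which were high in PAB library 3 at 375 and 657 reads and had 3 and 4 reads in PAB library 6. For miR-30b-5p the nearest was miR-1306-5p (0.93, against a median of 1.73), with 96 reads in PAB library 6. For miR-30a-5p the 3 nearest, miR-365-3p, miR-140-5p and miR-29b-3p, were as sparse as itself, at 0 to 5 reads in every library.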
